A study of Mus musculus with 9 samples.

Results

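The circadian clock genes described here were 10 genes given by symbol: Arntl, Clock, Per1, Per2, Per3, Cry1, Cry2, Nr1d1, Nr1d2 and Dbp. They were found in the gene column of the deposited result tables and joined by Ensembl ID to the count files, which held 54838 genes. All 10 were found, each with 1 ID. No cut on their values picked them, but the list was chosen with earlier results of these data known. RNA sequencing gave 9 mouse libraries. B16F10, a melanoma line of the C57BL/6 strain, had stood in culture medium for 5 h untreated (3 libraries) or with 600 µM hypochlorous acid (HOCl, the oxidant that neutrophil myeloperoxidase makes, 3 libraries). CD8+ T cells isolated by kit from spleens of adult C57BL/6 mice, of no stated sex or exact age, stood in medium for 5 h untreated (2 libraries) or with 600 µM HOCl (1 library). B16F10 is 1 established line, and whether T cells of several mice were pooled is not given in the sources used here. The time of day at which cells were collected is also not given, and no label ties a replicate to its own culture or mouse: the spread behind each p-value is that between libraries and may be technical.

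The mammalian clock is a loop of transcription and repression. BMAL1, the product of Arntl, pairs with CLOCK and switches on genes that carry E-boxes, among them the Per and Cry genes, whose products return to the nucleus and block the pair. A second loop joins the nuclear receptors REV-ERB alpha (Nr1d1) and REV-ERB beta (Nr1d2), which repress Arntl, with the ROR receptors, which activate it. DBP, a PAR bZIP factor, carries the rhythm to output genes through D-boxes. Most cell types run such a clock, lymphocytes and cultured lines included, and the transcript levels of its parts rise and fall over the day.

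Promoter windows of RefSeq (GRCm38.p6, 250 bases before to 50 after a start site) were matched by symbol for 9 of the 10 genes, in 13 windows. The 4 shown belong to the repressors with the largest difference between the cell types (Per1, Cry1), to the period gene with D-boxes (Per3) and to the member that rose with HOCl (Nr1d2). They lie at chr11:69098699-69098998 on the plus strand, and on the minus strand at chr10:85185005-85185304, chr4:151044616-151044915 and chr14:18239057-18239356. Capitals mark the E-box CACGTG, the D-box TTATGTAA and the hexamer AGGTCA, the core of the elements that REV-ERB and ROR receptors bind, each searched on both strands (the hexamer then reads TGACCT, as in Per1).
Per1: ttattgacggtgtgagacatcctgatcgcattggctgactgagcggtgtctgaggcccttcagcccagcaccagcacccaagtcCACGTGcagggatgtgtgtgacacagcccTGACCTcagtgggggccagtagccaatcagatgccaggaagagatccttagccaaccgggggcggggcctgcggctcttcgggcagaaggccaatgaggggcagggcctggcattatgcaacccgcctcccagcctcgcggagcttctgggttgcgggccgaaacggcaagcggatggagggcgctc
Cry1: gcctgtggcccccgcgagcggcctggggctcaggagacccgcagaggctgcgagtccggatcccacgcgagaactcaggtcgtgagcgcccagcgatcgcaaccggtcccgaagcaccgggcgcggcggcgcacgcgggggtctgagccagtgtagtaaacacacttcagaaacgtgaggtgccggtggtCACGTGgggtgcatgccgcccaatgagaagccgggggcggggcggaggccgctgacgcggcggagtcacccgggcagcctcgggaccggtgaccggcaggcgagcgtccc
Per3: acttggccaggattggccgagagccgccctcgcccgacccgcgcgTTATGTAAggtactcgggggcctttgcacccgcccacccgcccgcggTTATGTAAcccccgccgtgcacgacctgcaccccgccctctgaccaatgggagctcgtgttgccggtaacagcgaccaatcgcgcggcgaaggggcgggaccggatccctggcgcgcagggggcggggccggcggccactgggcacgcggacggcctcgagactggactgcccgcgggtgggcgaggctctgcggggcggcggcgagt
Nr1d2: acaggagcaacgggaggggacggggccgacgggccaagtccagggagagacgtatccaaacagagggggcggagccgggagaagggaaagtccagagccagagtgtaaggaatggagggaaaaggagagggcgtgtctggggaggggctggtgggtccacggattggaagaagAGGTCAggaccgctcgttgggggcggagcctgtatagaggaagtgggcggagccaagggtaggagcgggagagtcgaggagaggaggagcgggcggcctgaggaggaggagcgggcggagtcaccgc
In the windows shown, the E-box stood 166 bases before the start site of Per1 and 60 before that of Cry1. A further window of Per1 held none of the marked letters, and no window of the other 7 genes held the E-box. The E-box was found in 7.15% of 32851 windows and 8.09% of 27025 genes with a window. The D-box letters stood at 205 and 158 bases before the start of Per3 and in 0.938% of all windows (1.11% of genes). The hexamer was found in windows of 4 genes (Arntl, Clock, Per1 and Nr1d2), against 18.1% of all genes with a window and 16.3% of all windows. In Arntl, Clock and Per1 it was absent from another window, and in Arntl it stood 31 bases after the start site. These matches describe letters in short windows, and no match says only that the letters are absent from that window. No match shared a base with another.

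Gene counts per library came to 45.9 to 61.3 M for B16F10, to 49.9 and 52.1 M for T cells left untreated, and to 12.8 M for the library labelled T cell HOCl. Summed melanoma markers (8 of 8 with counts in every library) stood at 24160 to 25194 counts per M (CPM) in B16F10 and were low, 25.7 and 102 CPM, in T cells. Summed CD8 T cell markers (8 listed) reached 2797 and 2835 CPM in T cells without HOCl and 4.40 to 6.12 CPM across B16F10 libraries, but for HOCl replicate 3 with 25.9 CPM. Summed B cell markers (5 of 5 with counts) reached 1261 and 2358 CPM in untreated T cells, myeloid markers 8.14 and 9.33 CPM and red cell markers 2.24 and 11.2 CPM. The library labelled T cell HOCl stood apart. It held melanoma markers at 6759 CPM and T cell markers at 546 CPM, and 37.4% of its counts were mitochondrial, where B16F10 libraries had 0.5003% to 0.711% and the other T cell libraries 1.55% and 2.11%. The 10 clock genes together took 0.0170% to 0.0223% of the counts in B16F10, less than the 0.0463% and 0.0464% of T cells left untreated.

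**Figure D1:**
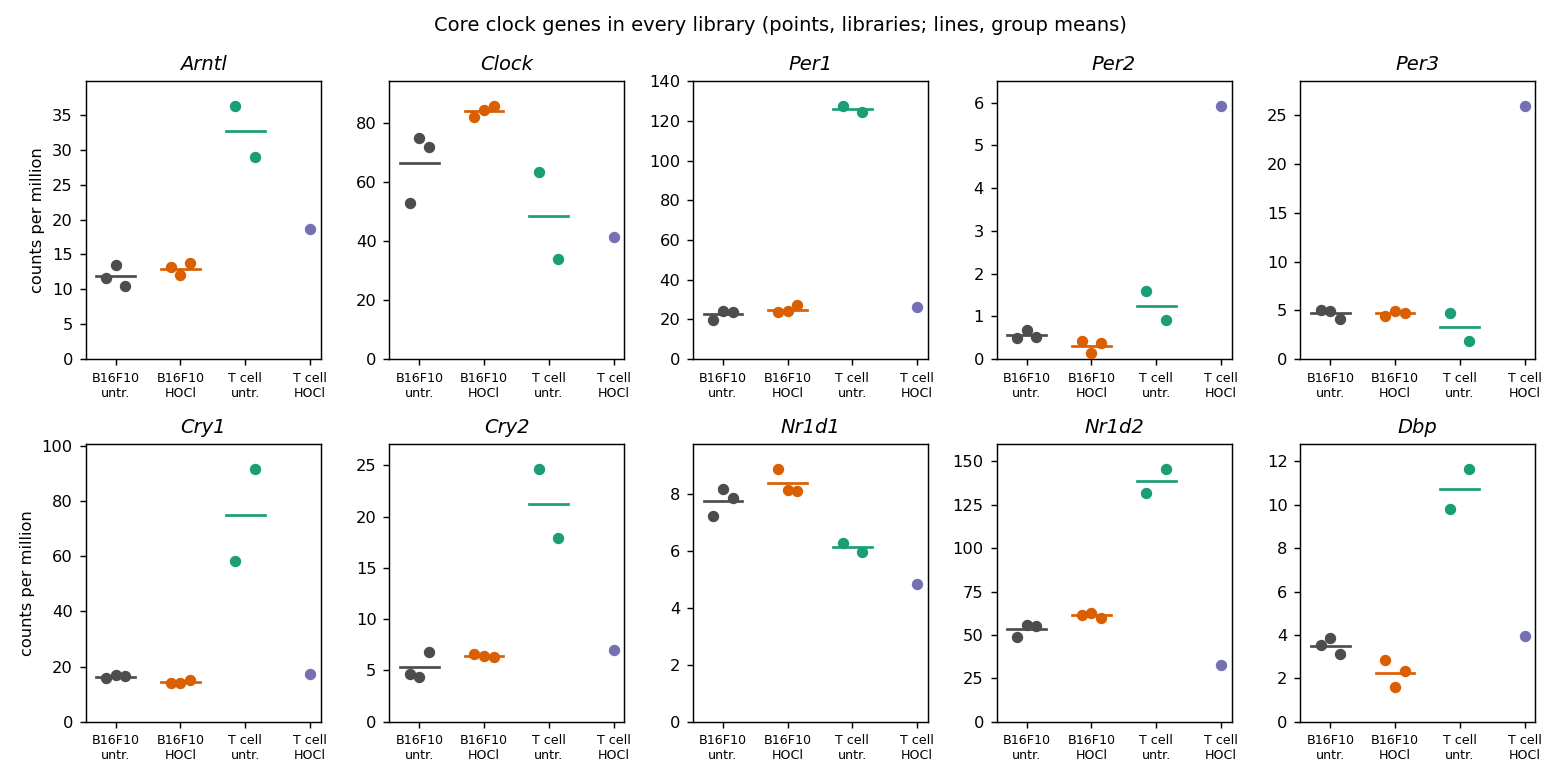
CPM (linear axes from 0, 1 panel per gene) of the 10 clock genes in all 9 libraries; points are libraries and horizontal lines group means. Per1, Cry1, Cry2, Arntl, Nr1d2, Dbp and Per2 stood higher in both untreated T cell libraries than in any B16F10 library. The B16F10 groups lay close together, and Per2 and Per3 peaked in the single T cell HOCl library.

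Levels of different genes were set side by side as reads per kb of merged exons and M counts (RPKM). In untreated B16F10, Nr1d2 had the highest level per length, 9.86 ± 0.685 RPKM (SD, n = 3). Cry1 at 4.89 ± 0.192 RPKM, Clock at 4.84 ± 0.876 RPKM and Per1 at 3.99 ± 0.419 RPKM followed, with ranges that overlapped from each to the next. Below them came Nr1d1 at 2.52 ± 0.157 RPKM, Arntl at 1.58 ± 0.196 RPKM, Dbp at 1.17 ± 0.118 RPKM and Cry2 at 0.839 ± 0.206 RPKM, of which only Dbp and Cry2 had overlapping ranges. Per3 at 0.487 ± 0.0489 RPKM and Per2 at 0.0958 ± 0.0166 RPKM closed the order, so the period genes spanned from Per1 among the 4 highest down to the lowest member.

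In untreated T cells the top of the per-length order was shared by Nr1d2 at 25.7 ± 1.78 RPKM (SD, n = 2), Cry1 at 22.4 ± 7.08 RPKM and Per1 at 22.3 ± 0.389 RPKM, whose neighbours in the order overlapped. Arntl at 4.34 ± 0.677 RPKM, Dbp at 3.58 ± 0.440 RPKM, Clock at 3.54 ± 1.51 RPKM and Cry2 at 3.37 ± 0.754 RPKM formed the middle, each overlapping the next. Nr1d1 at 1.99 ± 0.0730 RPKM, Per3 at 0.345 ± 0.214 RPKM and Per2 at 0.214 ± 0.0798 RPKM were lowest, the last pair with overlapping ranges. With HOCl, B16F10 kept Nr1d2 highest at 11.3 ± 0.288 RPKM and Per2 lowest at 0.0530 ± 0.0267 RPKM, and Clock at 6.12 ± 0.131 RPKM no longer overlapped Cry1 at 4.31 ± 0.160 RPKM.

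**Figure D2:**
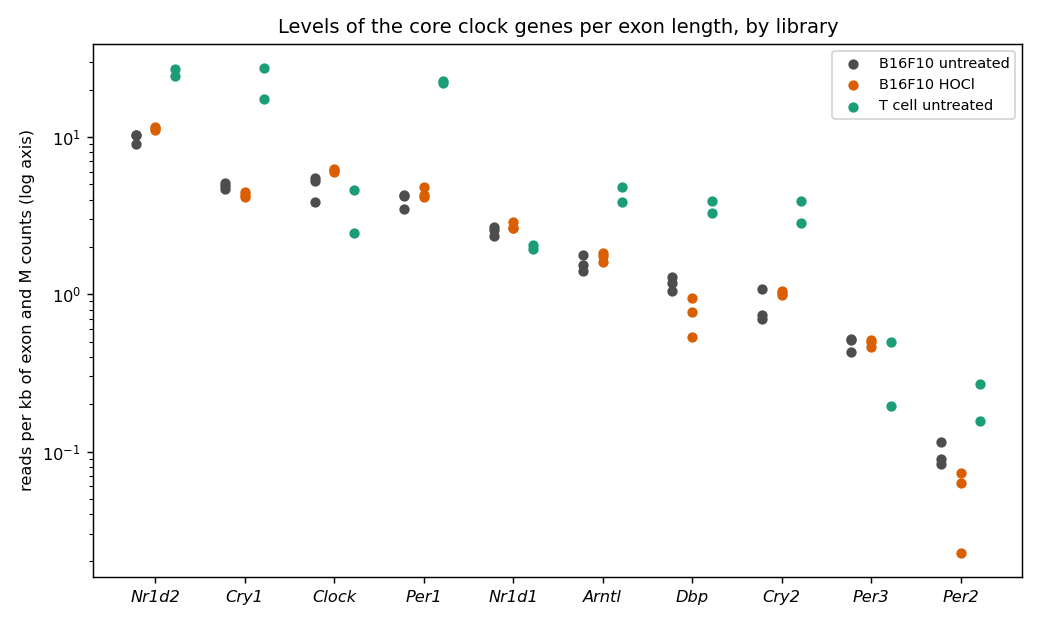
Level of each clock gene per exon length (reads per kb of merged exons and M counts, log axis) in each library of untreated B16F10, B16F10 given HOCl and untreated T cells, ordered by the mean in untreated B16F10. Nr1d2 was highest and Per2 lowest by mean in all 3 groups. The T cell points of Per1, Cry1, Arntl, Dbp, Cry2, Nr1d2 and Per2 lie above those of B16F10.

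The first comparison asked how HOCl changed the clock genes of B16F10. It moved them little: Dbp fell 1.59-fold, Nr1d2 rose 1.13-fold, and the other 8 of 10 did not pass the test. Of 16082 genes tested with edgeR (quasi-likelihood F test, adjusted after Benjamini and Hochberg), 28.3% were called (14.7% higher and 13.5% lower, 4544 genes in all and 3015 without HOCl replicate 3), so 2 of 10 is not above that background. The members' median log2 fold change was 0.09 against -0.01 over all genes tested, and their median absolute log2 fold change 0.19 against 0.20. CPM ranges of the 2 groups did not overlap for 5 of 10 members, against 43.6% of all genes tested.

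Among the activators, Clock stood at 52.7, 74.9 and 71.8 CPM in untreated replicates 1, 2 and 3 and at 82.1, 84.4 and 85.6 CPM with HOCl. All HOCl libraries were above all untreated ones, and untreated replicate 1 was the lowest. The log2 fold change was 0.31 ± 0.11 (SE), and edgeR's adjusted p 0.0507, just beyond the threshold of 0.05. The call of Clock turned on the processing: it passed without TMM scaling, with a stricter or no filter on low counts, and by DESeq2's Wald test (adjusted p 0.00841). Without untreated replicate 1 its log2 fold change was smaller, 0.17, and the edgeR adjusted p 0.00263. Arntl, its partner, stood at 11.6, 13.5 and 10.5 CPM untreated and at 13.2, 11.9991 and 13.7 CPM with HOCl, overlapping groups with a log2 fold change of 0.10 ± 0.10.

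Of the period repressors, Per1 stood at 19.7, 23.9961 and 23.6 CPM untreated and at 23.6, 24.2 and 27.0 CPM with HOCl. Its groups overlapped (log2 fold change 0.13 ± 0.09). Per2 had few counts, 30, 32 and 24 untreated (0.489, 0.672 and 0.523 CPM) and 21, 7 and 19 with HOCl (0.429, 0.133 and 0.370 CPM). The HOCl libraries were all lower, but replicate 2 was apart from the others, and the log2 fold change of -0.88 ± 0.43 (-0.51 without HOCl replicate 2) had an edgeR adjusted p of 0.152. Per3 stood at 4.14 to 5.00 CPM untreated and 4.41 to 4.93 CPM with HOCl, with a log2 fold change of -0.02 ± 0.12 that turned to 0.01 without TMM.

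The cryptochrome repressors moved in opposite directions, neither past the threshold. Cry1 stood at 15.7, 16.9 and 16.4 CPM untreated and at 14.2, 14.0 and 14.9974 CPM with HOCl, all lower than any untreated library. Its log2 fold change was -0.21 ± 0.07 with an edgeR adjusted p of 0.0518, and it passed with the stricter filter (0.0435) and without untreated replicate 1 (0.0221). Cry2 stood at 4.69, 4.41 and 6.80 CPM untreated and at 6.61, 6.45 and 6.27 CPM with HOCl (log2 fold change 0.26 ± 0.15). Untreated replicate 3 alone reached the HOCl level, and without it the log2 fold change was 0.48 with an edgeR adjusted p of 0.0185. D930015M05Rik, an antisense transcript at 0.559 ± 0.123 CPM, shares 4.67% of Cry2's exon bases.

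Nr1d2, the REV-ERB beta gene, stood at 49.0, 55.5 and 55.5 CPM untreated and at 61.6, 62.8 and 59.7 CPM with HOCl, with every HOCl library above every untreated one. The rise was 0.18 ± 0.06 on the log2 scale (edgeR adjusted p 0.0480). Its call ended without untreated replicate 2 or without HOCl replicate 1, 2 or 3, where the edgeR adjusted p ran from 0.0510 to 0.171. Nr1d1, the REV-ERB alpha gene, stood at 7.24, 8.19 and 7.87 CPM untreated and at 8.88, 8.16 and 8.12 CPM with HOCl, overlapping groups (0.09 ± 0.09). Thra, the thyroid receptor gene that overlaps it tail to tail, shares 8.55% of Nr1d1's exon bases and stood at 13.8 ± 0.954 and 13.7 ± 1.33 CPM (SD, n = 3 each).

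Dbp, the output factor, stood at 3.52, 3.84 and 3.14 CPM untreated and at 2.84, 1.597 and 2.32 CPM with HOCl. All 3 HOCl libraries were lower than all untreated ones. It fell by 0.67 on the log2 scale (SE 0.20), the largest called change among the members, with an edgeR adjusted p of 0.0290. Without untreated replicate 2, HOCl replicate 2 or HOCl replicate 3 its call ended (edgeR adjusted p 0.0887, 0.105 and 0.0609), and without HOCl replicate 2 the log2 fold change was -0.47. Sphk2, a sphingosine kinase gene on the other strand, shares 18.0% of Dbp's exon bases and rose from 32.2 ± 1.46 to 42.4 ± 1.24 CPM (log2 fold change 0.37 ± 0.06, edgeR adjusted p 0.000814). Strand use in the counting is not given in the sources used here, so reads from the shared bases cannot be told apart.

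The number of members called in this comparison depended on single libraries. It was 4 without untreated replicate 1, 1 without replicate 2 and 4 without replicate 3, and 1, 0 and 0 without HOCl replicates 1, 2 and 3 (with 2 and 4 members at an unadjusted edgeR p under 0.05 in the last pair). HOCl replicate 3, which held T cell markers at 25.9 CPM, had Nr1d2 and Dbp at 59.7 and 2.32 CPM, inside the span of the other HOCl libraries for Dbp and below it for Nr1d2. Without that library the log2 fold changes of Nr1d2 and Dbp were 0.20 and -0.69. Among HOCl libraries, Per1 (27.0 CPM), Arntl (13.7 CPM) and Cry1 were highest in it, and Cry2, like Nr1d2, was lowest. Without it the log2 fold changes of Per1 and Arntl were 0.07 and 0.06, against 0.13 and 0.10 with it. In the authors' deposited table for B16F10, Dbp (-0.46, adjusted p 0.0194), Nr1d2 (0.17, 0.0425) and Clock (0.29, 0.00741) were past 0.05 and the other 7 members were not. That table does not name its groups by treatment.

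**Figure D3:**
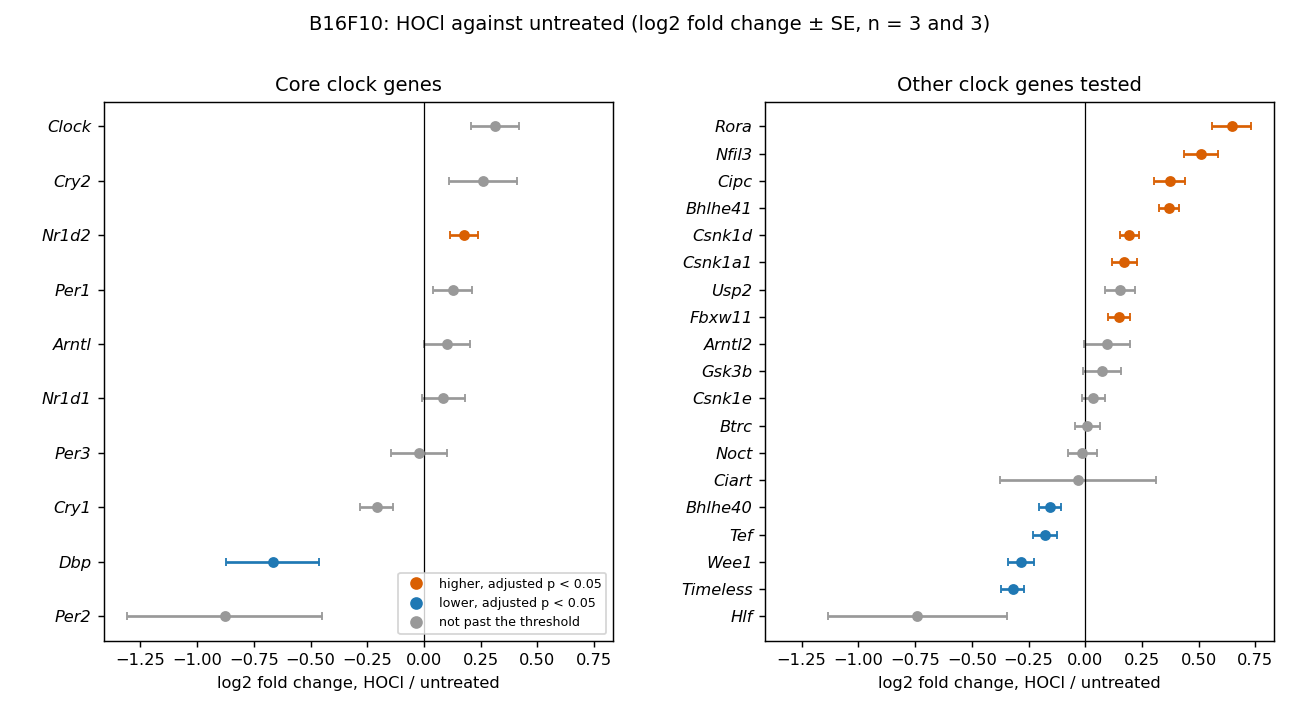
Log2 fold change with SE of HOCl against untreated B16F10 (x axis) for the 10 core clock genes (left) and 19 of the other clock genes tested (right), coloured by the edgeR call. Dbp and Nr1d2 were the called core genes; on the right, Rora, Nfil3, Cipc and Bhlhe41 lie farthest right and Timeless and Wee1 farthest left among those called.

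The other clock genes were a list of 24 written out with earlier results of these data known, which was not tested against the core genes. Of the 21 tested, 8 rose and 4 fell, 12 in all against a background of 28.3%, with a median log2 fold change of 0.07 against -0.01 over all genes. Npas2, Rorb and Fbxl21 were not tested, at no more than 0.114 CPM in any B16F10 library. None of these calls held against a 1.5-fold change in edgeR's glmTreat, where 0 of the 21 and 0 of the 10 core genes had an unadjusted p under 0.05.

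Rora, the ROR alpha gene that drives Arntl, rose from 10.9, 12.9 and 11.5 to 19.4, 17.4 and 19.3 CPM, groups far apart. The rise was 1.56-fold, a log2 fold change of 0.64 ± 0.08 with an edgeR adjusted p of 0.00021. Nfil3, a repressor that competes with DBP at D-boxes, rose 1.42-fold from 20.7, 18.9 and 19.1 to 29.6, 25.9 and 29.8 CPM (edgeR adjusted p 0.000435). Tef, a PAR bZIP relative of Dbp, fell by 0.18 on the log2 scale, from 65.95 to 68.0 CPM untreated to 58.7 to 63.2 CPM with HOCl. Thus both called PAR bZIP genes, Dbp and Tef, were lower while Nfil3 was higher. Hlf, the third PAR bZIP gene, stood at 0.462 to 0.872 CPM untreated and 0.273 to 0.551 CPM with HOCl and was not called.

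Among E-box repressors, Bhlhe41 (DEC2) rose 1.29-fold, from 453, 435 and 444 to 595, 576 and 581 CPM. Cipc, whose product binds CLOCK and inhibits it, rose 1.29-fold from 93.3, 113 and 111 to 140.1, 134 and 143 CPM. Bhlhe40 (DEC1) fell by 0.16 on the log2 scale, from 114, 117 and 112 to 109, 102 and 104 CPM, so the DEC genes moved in opposite directions, but the fall of Bhlhe40 lost its call without TMM (edgeR adjusted p 0.0672). Timeless, a replication fork protein with a debated part in the mammalian clock, fell by 0.32 and Wee1, a mitotic kinase gene driven by E-boxes, by 0.28 on the log2 scale. Bhlhe40 and Tef lost their calls without untreated replicate 2 or 3 or HOCl replicate 2 or 3, and Bhlhe40 also without HOCl replicate 1. Bhlhe41 shares 19.0% of its exon bases with a model gene on the other strand.

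The second comparison set untreated B16F10 against untreated T cells and shares the untreated B16F10 libraries with the first. Most of the clock genes were lower in the melanoma line: 7 of 10 were called lower by edgeR, 0 higher and 3 not called. Of the 18352 genes tested, 35.4% were called lower and 35.8% higher, 71.1% in all. At an unadjusted p under 0.05 the counts were also 7 lower and 0 higher, and DESeq2's Wald test gave 7 lower and 0 higher. The median log2 fold change of the members was -1.67 against -0.02 over all genes, while their median absolute log2 fold change was 1.67 against 1.68 over all genes. CPM ranges did not overlap for 8 of 10 members, against 81.8% of all genes. In bulk RNA, fewer cells of a type and less RNA per cell cannot be told apart.

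Of the Per and Cry repressors, Per1 had the largest log2 fold change: 124 and 127 CPM in T cells and 19.7 to 23.9961 CPM in untreated B16F10, 6.65-fold lower in the line (log2 fold change -2.73 ± 0.16, edgeR adjusted p 3.32e-05). Cry1 stood at 58.1 and 91.5 CPM in T cells and was 5.49-fold lower in B16F10, and Cry2 at 24.7 and 17.9 CPM and 4.73-fold lower (edgeR adjusted p 0.000359 and 0.000672). The T cell libraries lay apart from each other for the cryptochromes, yet well above the B16F10 ranges of 15.7 to 16.9 and 4.41 to 6.80 CPM. Per2 stood at 1.58 and 0.922 CPM in T cells (79 and 48 counts) and was 2.62-fold lower in B16F10, with an edgeR adjusted p of 0.0211. That call ended without any filter, with all 9 libraries in 1 fit, and without untreated B16F10 replicate 1 or 3 or T cell replicate 1. Per3 stood at 4.77 and 1.86 CPM in T cells, a spread that took in the lower edge of the B16F10 range.

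Arntl stood at 36.2 and 29.0 CPM in T cells and was 3.25-fold lower in B16F10 (log2 fold change -1.70 ± 0.18, edgeR adjusted p 0.000401). Clock, its partner, did not pass the test: 63.2 and 33.9 CPM in T cells against 52.7 to 74.9 CPM, with a log2 fold change of 0.23 ± 0.28. Whether Clock and Arntl differed from each other in this respect was not tested. Nr1d2 stood at 132 and 146 CPM in T cells and was 3.10-fold lower in B16F10 (edgeR adjusted p 0.000233). Nr1d1 stood at 6.29 and 5.97 CPM, below the B16F10 range of 7.24 to 8.19 CPM, with a log2 fold change of 0.09 ± 0.22 after TMM scaling that turned to -0.01 without untreated B16F10 replicate 2. Dbp stood at 9.79 and 11.7 CPM in T cells and was 3.65-fold lower in B16F10 (edgeR adjusted p 0.000937). The overlapping neighbours Thra and Sphk2 were lower in B16F10 too, by log2 fold changes of -1.96 ± 0.22 and -1.24 ± 0.14.

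The T cell libraries set limits to this comparison. Without T cell replicate 1, Clock and Per3 were called higher in B16F10 (log2 fold changes 0.68 and 1.04), and without T cell replicate 2 their log2 fold changes turned to -0.06 and -0.16. B cell markers stood at 1261 and 2358 CPM in the T cell libraries against 0.588 to 1.06 CPM in untreated B16F10, with 2 to 5 of 5 above 0 there, and their part in the clock gene differences was not tested. Freshly isolated spleen cells and a cultured line also differ in their handling, which cannot be told apart from cell type here. Without TMM the median log2 fold change of all genes moved from -0.02 to 0.22. The called members moved with it, to between -1.16 for Per2 and -2.49 for Per1, and all 7 remained called lower.

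**Figure D4:**
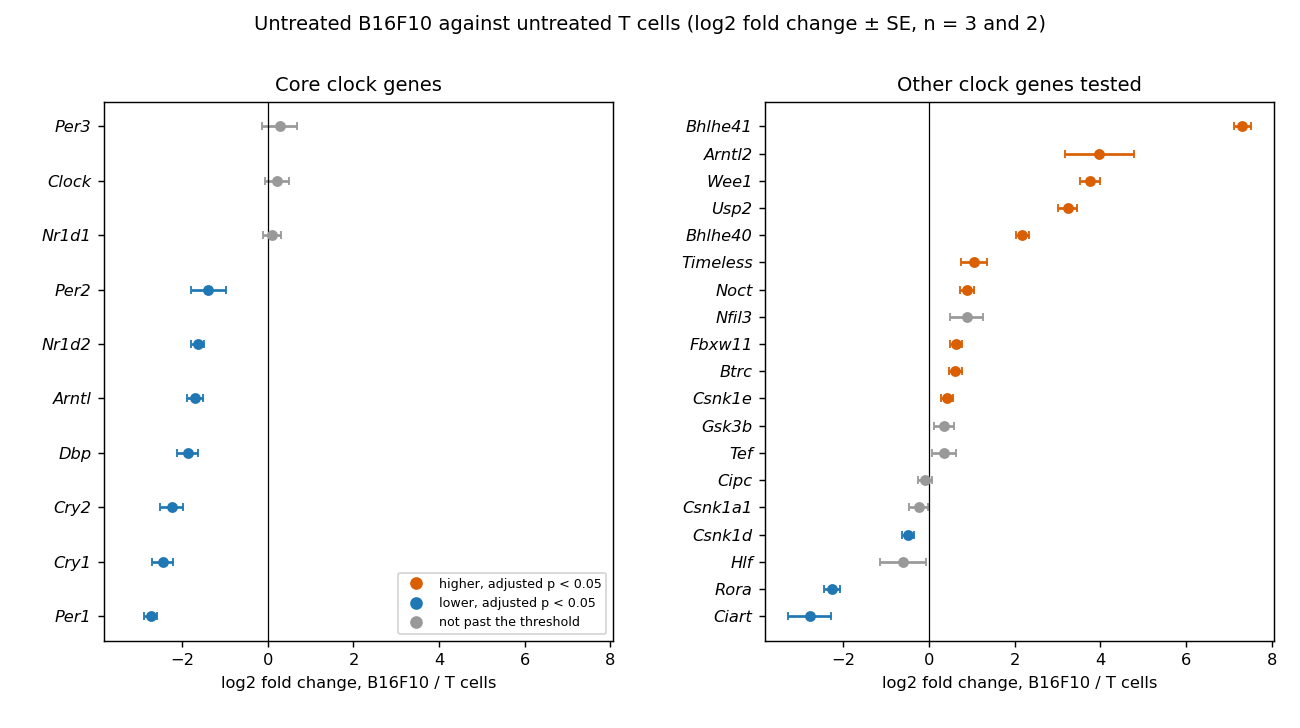
Log2 fold change with SE of untreated B16F10 against untreated T cells (x axis) for the 10 core clock genes (left) and 19 of the other clock genes tested (right), coloured by the edgeR call. The 7 called core genes all lie left of 0, from -1.39 for Per2 to -2.73 for Per1, while Bhlhe41, Arntl2, Wee1 and Usp2 lie farthest right in the other list.

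Of the other clock genes, 11 were higher in B16F10 and 4 lower of 21 tested, 15 in all and near the background of 71.1%, with a median log2 fold change of 0.61 against -0.02 over all genes. Npas2, Rorb and Fbxl21 were not tested. Bhlhe41 differed most of all: 2.38 and 2.32 CPM in T cells against 435 to 453 CPM, 159-fold higher in B16F10 (log2 fold change 7.31 ± 0.20, edgeR adjusted p 8.33e-06). Bhlhe40 stood at 20.5 and 21.96 CPM in T cells and 112 to 117 CPM in B16F10. The E-box repressors of the DEC family were thus high where most Per and Cry genes were low, while Ciart, a further repressor of CLOCK and BMAL1, was 6.89-fold lower in B16F10, at 0.479 to 1.26 CPM against 4.19 and 6.76 CPM.

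Rora was 4.83-fold lower in B16F10, at 10.9 to 12.9 CPM against 56.2 and 40.1 CPM. Arntl2, the paralogue of Arntl, stood at 9.04 to 10.01 CPM in B16F10 and at 0.941 and 0.0960 CPM in T cells, and so ran opposite to Arntl (15.7-fold higher, edgeR adjusted p 0.00566; log2 fold change 3.97, and 6.29 without T cell replicate 1). Wee1 and Usp2, a deubiquitinase gene of clock output, were 13.6-fold and 9.44-fold higher in B16F10. Csnk1d, a casein kinase 1 gene that acts on PER proteins, was 1.41-fold lower, a call lost without TMM, without any filter, against a 1.5-fold change or without untreated B16F10 replicate 2 or 3. The number of calls in this list was 20 without T cell replicate 1, 17 without replicate 2 and 15 with both.

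In the library labelled T cell HOCl, 7 of 10 clock genes stood below both untreated T cell libraries, 2 above and 1 between them. No test was made with this single library. The share of all genes that stood below, above or between was not computed, for all counts or for counts that were not mitochondrial. The numbers of members are therefore not read as a result about the clock genes. Per1 stood at 26.0 CPM, Nr1d2 at 32.9 CPM, Cry1 at 17.1 CPM, Arntl at 18.6 CPM, Cry2 at 7.01 CPM, Nr1d1 at 4.83 CPM and Dbp at 3.97 CPM. Clock lay between the untreated libraries at 41.3 CPM, and Per2 and Per3 above them at 5.92 and 25.9 CPM. Per M of counts that were not mitochondrial, 5 stood below, 4 above and 1 between: Per1 at 41.5, Cry1 at 27.4, Cry2 at 11.2, Nr1d2 at 52.6 and Dbp at 6.34 were still lower. On that scale Nr1d1 at 7.71 and Clock at 66.1 stood above both untreated T cell libraries, and Arntl at 29.7 between them. That library held melanoma markers at 6759 CPM, and the share of these in its clock values was not tested. Per2 and Per3 at 5.92 and 25.9 CPM were above every B16F10 library as well, where the highest values were 0.672 and 5.00 CPM.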

How the data were processed

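The authors deposited, for each library, whole-number read counts of genes without normalisation. DESeq2 1.22.2, featureCounts 1.6.0, STAR 2.7.1a and FastQC 0.11.8, with build mm10, are named in the submitters' processing notes. The sources used here do not give annotation release, strand setting or handling of multi-mapped reads. The authors' deposited tables gave a log2 fold change and an adjusted p-value for their own comparisons, printed only where named. Gene positions, exon lengths and overlaps came from GENCODE M21 (GRCm38), which held 54809 of the 54838 IDs. The 10 members lie, in GRCm38, 1-based, at chromosome 7, 113207465 to 113314126 (Arntl), 5, 76209868 to 76304792 (Clock), 11, 69095217 to 69109960 (Per1), 1, 91415982 to 91459324 (Per2), 4, 151003652 to 151044665 (Per3), 10, 85131700 to 85185064 (Cry1), 2, 92403646 to 92434043 (Cry2), 11, 98767932 to 98775333 (Nr1d1), 14, 18204054 to 18239127 (Nr1d2) and 7, 45705088 to 45710203 (Dbp).

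Each comparison was fitted apart over all genes with edgeR 4.0.16 in R 4.3.3: filterByExpr by group, TMM scaling, robust quasi-likelihood F test, two-sided, Benjamini-Hochberg adjustment, threshold 0.05. SE was taken as the size of the log2 fold change over root F. CPM are per M gene counts of a library, and errors of levels are SD, those of log2 fold changes SE. A count of 0 allows up to 3 counts, which is 0.234 CPM in the shallow T cell HOCl library and 0.0489 to 0.0654 CPM in the other 8, for counting error only. No pair of replicates agreed within counting noise (chi-square per degree of freedom 3.73 to 23.2 in B16F10 and 393 in T cells). Each library counted once in the fits. Such a spread cannot tell separate cultures or mice from technical differences between libraries. Named genes were all members, and of 24 other clock genes up to 5 called per direction with at least 50 mean counts; 2 genes of that list stay in its counts but are not reported here. Members and lists were chosen with earlier results of these data known. Alternatives were other scalings and filters, DESeq2 1.42.0, glmTreat, all 9 libraries in 1 fit, the replicate block and leaving out each library. The fits were tested on simulated data with the same spread for all genes and log2 fold changes of 1 in either direction, of which 100% were recovered. Smaller changes and the wide spread of the T cell libraries were not simulated, so this test does not bear on such calls.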

Additional observations from a re-analysis of the deposited data

Results flagged for a closer look

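Of the genes named above, 7 moved one way in every B16F10 library given HOCl and the opposite way in the library labelled T cell HOCl, relative to all untreated libraries of the same cell type. The difference between the cell types was not tested, and the T cell arm is 1 library that also held melanoma markers. The share of all genes that moved in opposite ways was not computed. The number of 7 is therefore not read as a result about these genes. In B16F10 alone, CPM ranges with and without HOCl did not overlap for 43.6% of all genes tested. Nr1d2 was higher in B16F10 with HOCl but stood at 32.9 CPM in the T cell HOCl library against 132 and 146 CPM in untreated T cells. Rora, Cipc and Csnk1d were likewise higher in B16F10 and lower in that library, at 31.4, 40.3 and 78.3 CPM against at least 40.1, 92.7 and 207 CPM. Per M of counts that were not mitochondrial, Rora stood at 50.3 there, between the untreated 41.0 and 57.1, and the other 6 kept their direction. Per2, Bhlhe40 and Wee1 were lower in B16F10 with HOCl and higher there, at 5.92, 36.7 and 49.7 CPM against at most 1.58, 21.96 and 5.23 CPM. In untreated B16F10, Bhlhe40 and Wee1 were higher than in that library (112 to 117 and 63.1 to 70.2 CPM), and Per2 was lower (0.489 to 0.672 CPM). Per2 was not called in B16F10 and had 7 to 32 counts per library.

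Per2 and Per3 also stood out as members with a level in that library, outside the tests, above both untreated T cell libraries: 5.92 CPM (76 counts) and 25.9 CPM (333 counts) against at most 1.58 and 4.77 CPM. This was not particular to them: Rorb at 18.4 CPM and Npas2 at 10.8 CPM also stood above both untreated T cell libraries there. Counts were present for 44225 genes in that library and for 22855 to 25907 in the others.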

How the results depend on the processing

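In the HOCl comparison, members called went from 2 to 4 with the stricter filter of 1 CPM and 50 mean counts, to 0 against a 1.5-fold change and to 0 with all 9 libraries in 1 fit, where 1 member had an unadjusted p under 0.05; leaving out 1 library gave 0 to 4. Other clock genes called went from 12 to 0 and 0 under the latter settings and to 8 to 13 without 1 library, and all genes called from 4544 to 73 and 37, and to 3015 to 5453. The fit of all 9 libraries takes in the spread between the untreated T cell libraries, and it tested 34290 genes in place of 16082. The part of each in the drop was not tested. Deviations of same-numbered B16F10 samples had correlations of -0.00347 to 0.0352, which with 3 libraries per group cannot exclude pairing. With the replicate numbers as a block 3 members, 12 other clock genes and 5293 genes were called, Clock newly among them. Per3, never called there, changed sign to 0.0053 without TMM and ranged from -0.094 to 0.036 without 1 library.

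Between the cell types, called members stayed at 6 to 8 in all settings, other clock genes at 10 to 20 and genes at 10083 to 15272; the block, with 2 shared numbers, gave 6, 10 and 10083. Without 1 library, Clock ranged from -0.064 to 0.68, Per3 from -0.16 to 1.04 and Nr1d1 from -0.0092 to 0.17. Depth limits Per2 most, with 7 to 32 counts per B16F10 library.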

Other observations

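Some clock genes that were low or nearly silent elsewhere stood higher in the library labelled T cell HOCl. Rorb stood at 18.4 CPM there and at 0 to 0.114 CPM in the other 8 libraries, Npas2 at 10.8 CPM against 0 to 0.280 CPM, Hlf at 10.7 CPM against 0.273 to 1.09 CPM and Fbxl21 at 3.42 CPM against 0 to 0.160 CPM. That library had a count for 44225 genes, against 22855 to 25907 in the others. These genes were picked after their values were seen.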
